A study of Mus musculus with 2 samples.

Results

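The CD4 and regulatory T cells described here are 88 of 7308 kept kidney barcodes, chosen by captured transcripts of a T cell receptor complex gene together with Cd4 or Foxp3. CD4 T cells help other immune cells through surface ligands and cytokines, and regulatory T cells are a CD4 subset that restrains immune responses and depends on the transcription factor Foxp3. Regulatory T cells in solid tissues also carry a repair programme that includes the interleukin-33 receptor and amphiregulin. In the kidney, both kinds of T cell are rare among epithelial, endothelial and myeloid cells, so they are read here from few barcodes.

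The cells came from digested kidney cortex of mice aged 12 weeks and were measured with 3' droplet single-cell RNA sequencing in which unique molecular identifiers (UMIs) count captured transcripts. The library labelled Pod-I_Ppo-1 is from mice expressing I-PpoI in podocytes, the filtration cells of the glomerulus, and the other, labelled Wild-Type, has no such transgene named. I-PpoI is an enzyme that cuts both DNA strands at its recognition sites. The labels do not give the number of animals pooled, their sex, the strain, or the promoter behind I-PpoI. Each group is a single library, so no difference between them could be checked against replicates or tested, and all intervals are 95% intervals for counting error only.

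The CD4 set was chosen by measured UMIs. A barcode needed at least 200 detected genes, at most 50% mitochondrial UMIs, at least 1 UMI of Cd3d, Cd3e, Cd3g or Trac and at least 1 UMI of Cd4 or Foxp3. Barcodes with a Cd8a, Cd8b1 or Cd79a UMI, or more than 1 C1q UMI, were left out. The set held 88 of the 10804 barcodes in the files and of the 7308 that met the gene and mitochondrial limits, with 78 from the I-PpoI library and 10 from the wild-type library. A Foxp3 UMI was found in 41 of the I-PpoI cells, called Foxp3 cells below, and in none of the 10 wild-type cells. The exact interval of 0 of 10 allows a share of up to 30.85%. The other 37 I-PpoI cells all had a Cd4 UMI and are called Foxp3-negative, meaning that no Foxp3 UMI was captured.

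The 4 defining genes described the set as follows, and since the rule used Cd4, Foxp3 and Cd3e these values are no result. Cd4 (mm10, chromosome 6, 124864692 to 124888221, minus strand), the co-receptor for MHC class II, had a UMI in 49 of the 78 I-PpoI cells, in 12 of the 41 Foxp3 cells and in all 10 wild-type cells. Foxp3 (chromosome X, 7573644 to 7595245, plus strand) had 1 UMI in 18 cells and 2 or more in 23, with a maximum of 6. Cd3e, a T cell receptor signalling chain, had a UMI in 55 of 78 and in 10 of 10 cells. Ctla4 (chromosome 1, 60887000 to 60915832, plus strand), an inhibitory receptor that the rule did not use, had a UMI in 28 of 41 Foxp3 cells, 13 of 37 Foxp3-negative cells and 0 of 10 wild-type cells. Barcodes without a Cd3 or Trac UMI had a Foxp3 UMI in 0.0791% and a Cd4 UMI in 2.63% of the I-PpoI library, at a median depth of 7015 UMIs. Of the 4 markers only Ctla4 checks the label, since the rule fixed the others, and within the set it was found in I-PpoI cells alone.

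Many cells sat at the edge of the rule. The Cd4 and Foxp3 UMIs summed to 1 in 37 of the 78 cells from I-PpoI kidneys and 7 of the 10 from wild-type kidneys, the Cd3 and Trac UMIs to 1 in 5 and 0 cells, and 9 I-PpoI cells held 1 C1q UMI. Just outside lay 4 I-PpoI and 1 wild-type barcodes with more than 1 C1q UMI and 3 I-PpoI barcodes with a CD8 UMI.

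The libraries held 37811289 and 27793633 UMIs, and 6 barcodes occurred in both, none of them in the CD4 set. Median depth was 2596 UMIs in Foxp3 cells, 2793 in Foxp3-negative cells and 3290 in wild-type cells. A Foxp3 cell with 23485 UMIs, a Foxp3-negative cell with 31684 and a wild-type cell with 10113 each carried at least 50 UMIs of endothelial, fibroblast or tubular markers. These 3 barcodes rich in other lineages gave 15.6% of the Foxp3, 21.5% of the Foxp3-negative and 22.8% of the wild-type UMIs, and matrix genes such as Mgp led several rankings through them. Genes that took at least 50% of their UMIs from such barcodes are counted below and given no values. Ratios without these barcodes are given for some of the genes where they differ, not for all.

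The CD4 set made up 1.91% (1.51 to 2.37) of kept barcodes in the I-PpoI library and 0.311% (0.149 to 0.571) in the wild-type library, a ratio of 6.13 (3.16 to 13.3). As a share of barcodes with a Cd3 or Trac UMI it was 26.4% (78 of 296, 21.4 to 31.8) and 14.1% (10 of 71, 6.97 to 24.4), a ratio of 1.87 whose interval of 0.965 to 4.05 included 1. Foxp3 cells were 13.9% (10.1 to 18.3) of the I-PpoI T barcodes and 0 of 71 wild-type ones, a share at least 3.28-fold higher if 3 barcodes are taken as the limit, with an exact lower limit of 2.55. Foxp3-negative CD4 cells took 12.5% and 14.1% of the T barcodes, a ratio of 0.888 (0.433 to 2). These shares describe 2 libraries, and the difference between the 2 ratios was not tested. CD8 cells, by comparison, were 25% and 7.04% of T barcodes, and barcodes with no Cd4, Foxp3 or CD8 UMI were 38.9% and 77.5%. When each cell was thinned to 1000 UMIs the CD4 set held 39 and 3 cells, 16.1% and 6% of T barcodes, and Foxp3 cells were 9.92% in the I-PpoI library, at least 1.65-fold higher with an exact lower limit of 1.24. The number of mice behind each library, and so the spread between mice, is not known.

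**Figure D1:**
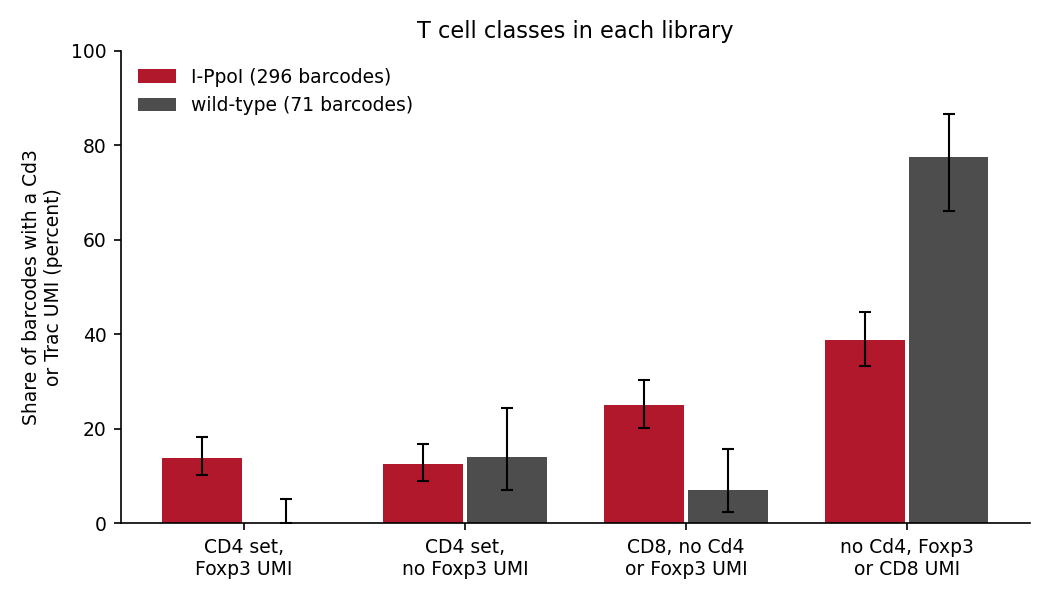
Share of barcodes with a Cd3 or Trac UMI (percent, y axis) in 4 classes, by library, with exact Clopper-Pearson intervals for counting error only. Foxp3 cells reached 13.9% in the I-PpoI library and 0 in the wild-type library, while Foxp3-negative CD4 cells were at 12.5% and 14.1%.

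Within the I-PpoI library, Foxp3 cells carried a regulatory T cell profile that extended well past Foxp3. Of 23 regulatory identity genes other than those of the rule, 16 had at least 10 UMIs over both classes. 13 of these were higher in Foxp3 than in Foxp3-negative cells, 11 at least 2-fold, and none was 2-fold lower. Over all 4300 genes measured in this comparison, 13.8% were at least 2-fold higher, 9.95% at least 2-fold lower and 53% higher at all. The list median was 1.61 (log2), against 0.086 over all genes, and 1.64 without the barcodes rich in other lineages. The reference cells were chosen by Cd4 detection alone, and after thinning to 1000 UMIs 63.4% of the Foxp3 cells still had a Foxp3 UMI.

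Some genes of interleukin-2 signalling were higher, and those given here are examples, not a count of their list. No direction of the list as a whole is read from them. Il2ra (chromosome 2, 11642807 to 11693193, plus strand), the high-affinity chain of the interleukin-2 receptor, had 68 UMIs in 29 of 41 Foxp3 cells and 5 UMIs in 3 of 37 Foxp3-negative cells, a ratio of 13.3 (5.42 to 42.2). The Il2ra ratio was 10.2 (4.11 to 32.5) without the barcodes rich in other lineages. No wild-type cell had an Il2ra UMI, and barcodes without a Cd3 or Trac UMI had one in 1.82% of the I-PpoI library. The thinned shares were 31.7% and 5.41%, so the classes stayed apart at equal depth. Per cell, Il2ra ran from 0 through a median of 1 to 12 UMIs in Foxp3 cells and reached at most 2 in Foxp3-negative cells, so the classes overlapped at the low end. Il2rg, the signalling chain shared by several cytokine receptors, had 69 and 28 UMIs, a ratio of 2.41 (1.53 to 3.88), and Pim1, a kinase downstream of these receptors, had 89 and 32, a ratio of 2.72 (1.8 to 4.21).

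Among transcription factors, Ikzf2 (Helios; chromosome 1, 69531214 to 69687245, minus strand) had 179 UMIs in 35 of 41 Foxp3 cells and 28 in 8 of 37 Foxp3-negative cells, a ratio of 6.24 (4.18 to 9.66). In Foxp3 cells its UMIs ran from 0 to 21 with a median of 3, while in the other class the median was 0 and 1 cell held 14 of the 28 UMIs. Ikzf4 (Eos), a partner of Foxp3 in repression, had 22 and 3 UMIs, a ratio of 7.16 (2.15 to 37.4). Lef1 had 16 and 4 UMIs (ratio 3.91, 1.26 to 16.1), whereas Tcf7, the related factor of naive and memory T cells, had 1 UMI in 1 Foxp3 cell and 22 UMIs in 9 Foxp3-negative cells, a ratio of 0.0444 (0.00108 to 0.275).

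All 4 measured genes of the checkpoint and exhaustion list were higher in Foxp3 cells, 3 at least 2-fold (median 1.44, log2). Of 8 costimulation genes 1 was at least 2-fold higher and 3 at least 2-fold lower. Among the regulatory identity genes, Ctla4 had 88 UMIs in 28 Foxp3 cells and 23 in 13 Foxp3-negative cells, a ratio of 3.74 (2.34 to 6.2). Tnfrsf4 (OX40) had 137 and 41 UMIs (ratio 3.26, 2.29 to 4.75), Tnfrsf18 (GITR) 105 and 32 (3.21, 2.14 to 4.92), and Tnfrsf9 (4-1BB) 53 and 9 (5.75, 2.81 to 13.3). Tnfrsf1b, the tumour necrosis factor receptor 2, had 28 and 4 UMIs, a ratio of 6.84 (2.39 to 26.8) that became 12.7 without the barcodes rich in other lineages. Izumo1r (folate receptor 4) had 28 and 9 UMIs, a ratio of 3.04 (1.39 to 7.32). Pdcd1 (PD-1) had 39 and 12 (3.17, 1.63 to 6.66), and Nrn1, which is found on some regulatory and exhausted T cells, had 23 in 9 cells and 2 in 2 cells (11.2, 2.78 to 98.3).

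Icos, a costimulatory receptor on many regulatory T cells, went the other way, with 15 UMIs in 10 Foxp3 cells and 29 in 18 Foxp3-negative cells, a ratio of 0.505 (0.252 to 0.974). Il10, an inhibitory cytokine, had 1 UMI in the whole set, so its level could not be compared.

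**Figure D2:**
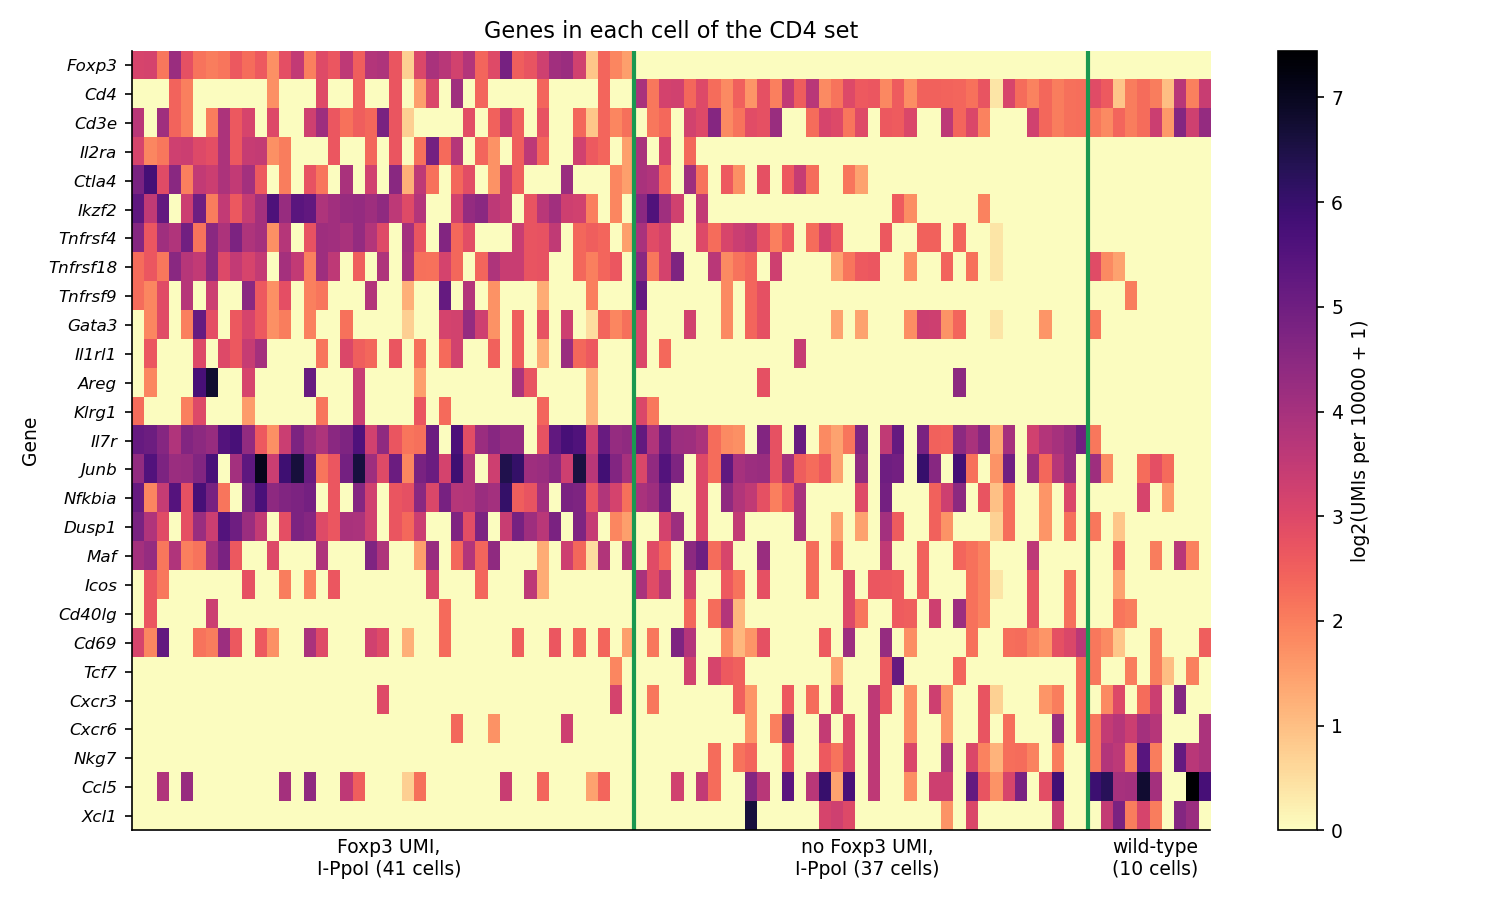
Each column is 1 cell of the CD4 set and each row 1 gene, coloured by log2(UMIs per 10000 + 1), with cells ordered inside each class by their summed level of Il2ra, Ctla4, Ikzf2, Tnfrsf4 and Tnfrsf18. Ikzf2 is found in 35 of 41 Foxp3 cells and in no wild-type cell, and Nkg7 in 9 of 10 wild-type cells and no Foxp3 cell.

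The regulatory genes were found together in single cells. Of 8 genes (Il2ra, Ctla4, Ikzf2, Tnfrsf4, Tnfrsf18, Icos, Tigit, Izumo1r), a Foxp3 cell had a median of 5 with a UMI (range 2 to 7), and 38 of 41 cells had at least 3. Foxp3-negative cells had a median of 2 (0 to 7) with at least 3 in 15 of 37, and wild-type cells a median of 0 (0 to 2) with none detected in 7 of 10. The medians after thinning to 1000 UMIs were 3, 1 and 0. In the I-PpoI library the median was 0.5 in CD8 cells and 2 in the CD4-CD8-negative T cells. The Foxp3 cells thus had the highest median of these 5 classes. However, the 3 Foxp3-negative cells with 5 or more of the 8 genes had 6 or 7, at the upper end of the Foxp3 range. Both Il2ra and Ctla4 were present in 20 of 41 Foxp3 cells and 3 of 37 Foxp3-negative cells.

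**Figure D3:**
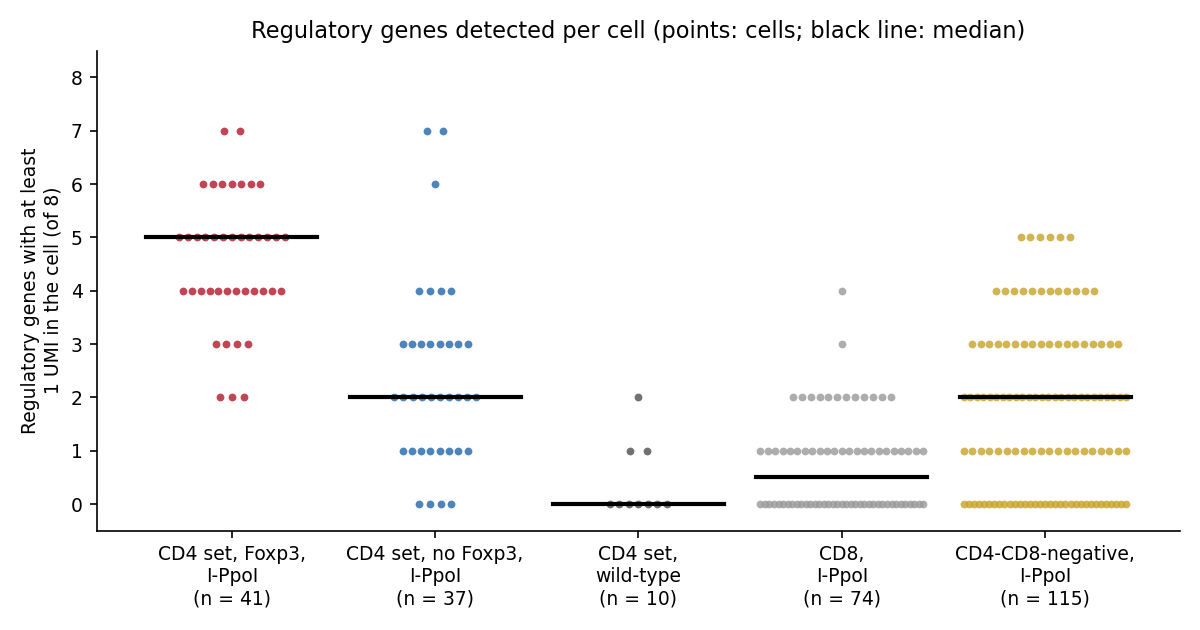
Number of 8 regulatory genes with at least 1 UMI (y axis) in each cell of 5 classes, with the class median as a black line. The medians were 5 in Foxp3 cells, 2 in Foxp3-negative cells, 0 in wild-type CD4 cells, 0.5 in CD8 cells and 2 in CD4-CD8-negative T cells.

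Genes of the tissue repair programme were also higher in Foxp3 cells. All 9 measured genes of 14 were higher and 8 were at least 2-fold higher, with a median of 2.08 (log2), and 7 of 9 were 2-fold higher without the barcodes rich in other lineages, against 12.7% of all genes. These counts include Pparg, which had no UMI in Foxp3-negative cells and passed the count minimum through the Foxp3 cells alone. Il1rl1 (ST2; chromosome 1, 40429570 to 40465415, plus strand), the interleukin-33 receptor, had 45 UMIs in 20 of 41 Foxp3 cells and 4 in 3 of 37 Foxp3-negative cells. This ratio was 11 (4.01 to 42.1), and 7.49 (2.66 to 29.1) without those barcodes. Areg, the growth factor amphiregulin, had 78 UMIs in 10 Foxp3 cells and 6 in 2 Foxp3-negative cells, a ratio of 12.7 (5.58 to 35.7), with 36 of the 78 UMIs in 1 cell. Klrg1, an inhibitory receptor of differentiated cells, had 18 and 2 UMIs (ratio 8.79, 2.1 to 78.1), and Penk, which encodes an enkephalin precursor, had 19 and 4 (4.64, 1.54 to 18.8). A single cell held 52.2% of the 23 Penk UMIs of these 2 classes.

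Gata3 (chromosome 2, 9857078 to 9890034, minus strand), a factor shared by type 2 helper cells and tissue regulatory cells, had 48 UMIs in 25 Foxp3 cells and 18 in 14 Foxp3-negative cells. This was a ratio of 2.60 (1.49 to 4.76), and the thinned shares were 29.3% and 10.8%. Batf, which drives the tissue programme, had 24 and 9 UMIs (2.6, 1.17 to 6.37). Pparg, a nuclear receptor of adipose regulatory cells, had 13 UMIs in 7 Foxp3 cells and 0 in the other class, at least 4.23-fold higher, but a Pparg UMI was also found in 5.96% of I-PpoI barcodes outside the T cells. Ccr8 had 18 and 8 UMIs, a ratio of 2.2 (0.909 to 5.84) that included 1, as did that of Rora at 1.38 (0.772 to 2.5). Gata3 and Ikzf2 were both detected in 21 Foxp3 cells, and Il1rl1 was detected in 7 of the 10 cells with Areg and in 20 of 41 cells overall.

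Il7r, Gata3, Il1rl1, Rora and Areg also mark innate lymphoid cells, and the markers of that type summed to a median of 25.9 UMIs per 10000 in Foxp3 cells and 13.4 in Foxp3-negative cells. Of its 10 markers, Kit, Hs3st1 and Il5 were at 0 in both classes and 6 were detected in each.

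**Figure D4:**
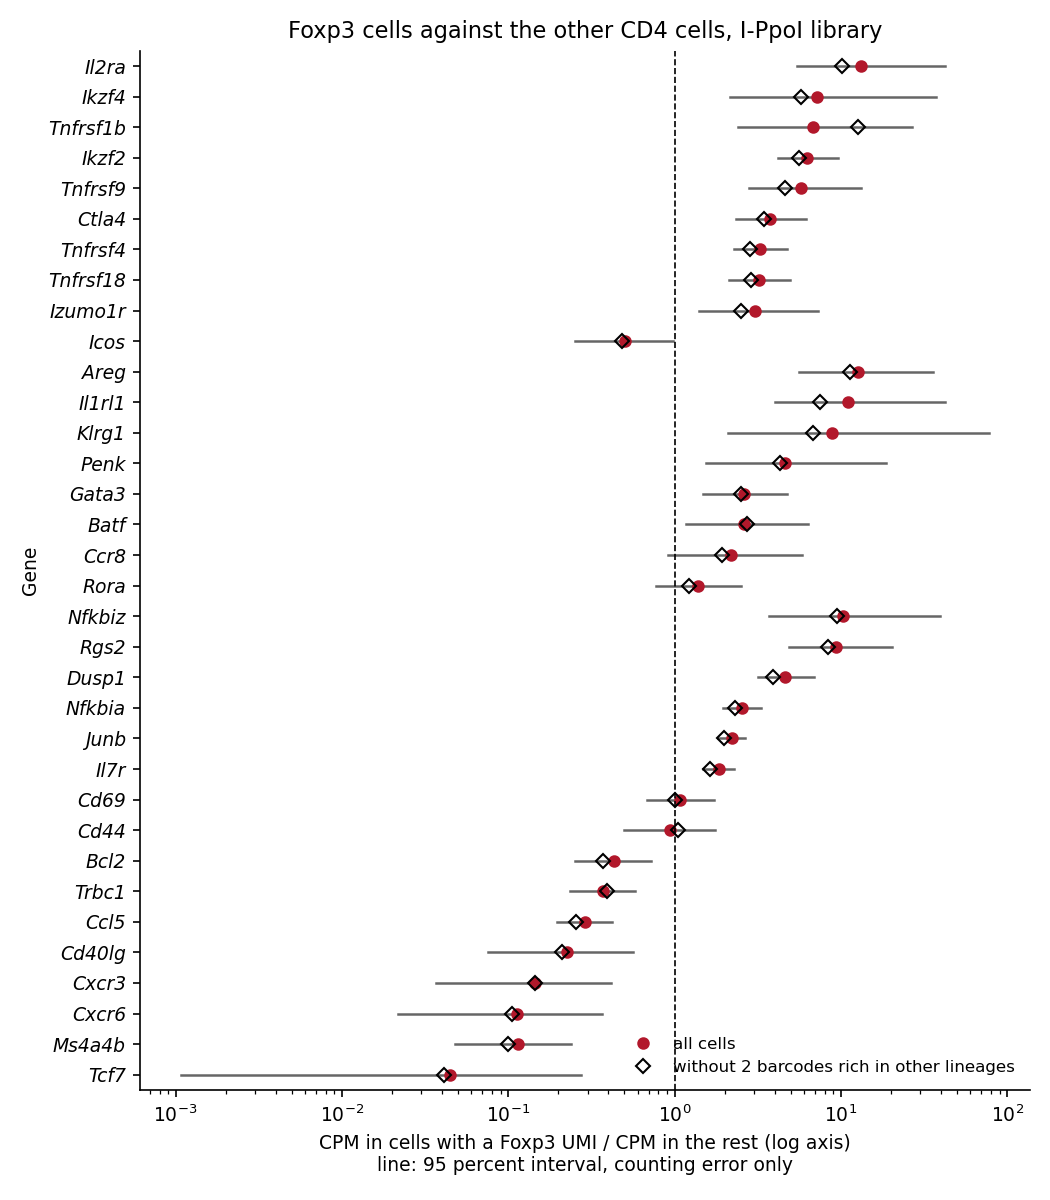
Ratio of CPM (UMIs per 1000000 UMIs) in Foxp3 over Foxp3-negative cells of the I-PpoI library for 34 named genes on a log axis, with 95% intervals for counting error; open diamonds leave out the 2 barcodes rich in other lineages. Il2ra (13.3), Areg (12.7) and Il1rl1 (11) lie far to the right, and Cxcr3 (0.145), Cxcr6 (0.113) and Tcf7 (0.0444) to the left.

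Activation genes were higher in Foxp3 cells. In the list of NF-kB response genes 10 of 12 were higher and 3 at least 2-fold, with a median of 0.77 (log2, 0.57 without the barcodes rich in other lineages). Nfkbiz, an inducible inhibitor family member, had 42 UMIs in 24 cells and 4 in 4 cells, a ratio of 10.3 (3.72 to 39.4). Nfkbia, which encodes the inhibitor IkB alpha, had 211 and 81 UMIs (2.54, 1.96 to 3.33). In the list of immediate early and heat shock genes 13 of 16 were higher and 7 at least 2-fold (median 0.73, 0.58 without those barcodes). Dusp1, a phosphatase that ends kinase signals, had 160 and 34 UMIs (4.6, 3.16 to 6.87), Junb 380 and 168 (2.21, 1.84 to 2.67), Rgs2, a G protein regulator, 96 and 10 (9.38, 4.88 to 20.2), and Hspa1a 42 and 12 (3.42, 1.77 to 7.13). The share of cells with an Nfkbiz UMI outside the T cells was 39.2% and with an Rgs2 UMI 42.7%, so neither gene is particular to T cells. Median mitochondrial share was 4.35% in Foxp3 cells and 2.97% in Foxp3-negative cells, and its part in these ratios was not tested.

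Trafficking genes differed in both directions. Ccr9, a gut-homing receptor, had 17 UMIs in 6 Foxp3 cells and 0 in the other class, at least 5.54-fold higher. Itgae (CD103), a chain of the integrin that binds epithelium, had 16 and 4 UMIs (3.91, 1.26 to 16.1), a difference that turned to -0.15 (log2) at 1000 UMIs a cell. Itgav, which can activate latent TGF-beta, had 48 UMIs in 20 cells and 7 in 3 cells (6.7, 3.01 to 17.5), and its ratio was 13.9 without the barcodes rich in other lineages. Itgb1, the beta-1 integrin chain, had 31 and 129 UMIs, a ratio of 0.235 (0.153 to 0.35) that became 0.106 (0.0489 to 0.204) without them. The TGF-beta response list had 6 of 8 genes higher, 4 of them at least 2-fold, including its feedback inhibitor Smad7 with 54 and 26 UMIs (2.03, 1.25 to 3.38). Cd69 (1.08, 0.679 to 1.72) and Cd44 (0.934, 0.497 to 1.75), which mark tissue-resident and activated cells, had intervals around 1. The naive and central memory list had 6 of 10 genes higher with a median of 0.54 (log2), but -0.62 without the barcodes rich in other lineages.

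Some type 1 and cytotoxic genes were lower in Foxp3 cells. Of 3 measured cytotoxic genes Nkg7 and Ctsw were at least 2-fold lower, and the granzyme Gzmb had 13 and 8 UMIs (1.59, 0.61 to 4.42). Nkg7, a cytotoxic granule protein, had 35 UMIs in 17 of 37 Foxp3-negative cells and 0 in 41 Foxp3 cells, at least 11.9-fold lower in the latter. Ctsw had 25 UMIs in 14 cells and 1 in 1 Foxp3 cell (0.0391, 0.000952 to 0.239). The chemokine receptor Cxcr3 of type 1 helper cells had 27 UMIs in 16 cells and 4 in 2 (0.145, 0.0368 to 0.415), and Cxcr6, a tissue-residence receptor, 26 in 12 and 3 in 3 (0.113, 0.0218 to 0.368). Ccl5, a chemokine of effector cells, had 128 UMIs in 21 cells and 38 in 12 (0.29, 0.196 to 0.419). Ifng, the type 1 cytokine, had 10 UMIs in 7 Foxp3-negative cells and none in Foxp3 cells. The granzyme Gzmk (8 UMIs) and the death ligand Fasl (7 UMIs) were found in 5 and 7 Foxp3-negative cells and in no Foxp3 cell. Both were under the minimum of 10 UMIs, so their levels were not compared. Xcl1 had 61 UMIs in 7 cells, 45 of them in 1 cell.

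Helper ligands followed the same division. Cd40lg (chromosome X, 57212143 to 57224042, plus strand), through which helper cells license B cells and dendritic cells, had 26 UMIs in 14 Foxp3-negative cells and 6 in 3 Foxp3 cells (0.225, 0.0759 to 0.56). Tnfsf8 (CD30 ligand) had 20 and 5 UMIs (0.244, 0.0716 to 0.671). Of the type 17 genes, Il17a gave 27 UMIs that all came from 1 Foxp3-negative cell. Ccr6 had 13 UMIs in 6 Foxp3 cells and 4 in 1 Foxp3-negative cell (3.17, 0.981 to 13.4), and Tmem176a 6 and 31 (0.189, 0.0645 to 0.46). In a list of 6 type 1 genes 2 were at least 2-fold lower in Foxp3 cells and in a list of 4 type 2 genes all 4 were higher, led by Il1rl1 and Gata3, which the tissue repair list also holds. Tbx21, the type 1 master factor, gave 3 UMIs in the whole set.

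T cell receptor signalling genes were slightly lower in Foxp3 cells. Of 20 such genes, 17 were lower and 3 at least 2-fold, with a median of -0.39 (log2), which was -0.0044 when cells with a C1q UMI were left out. Trbc1, a beta chain constant region, had 29 and 76 UMIs (0.373, 0.234 to 0.579), although the number of cells with a UMI was 13 and 14. Themis, a signalling adaptor, had 6 UMIs in 5 cells and 19 in 17 (0.308, 0.101 to 0.803). Il7r, the interleukin-7 receptor that keeps memory T cells alive, was found in 39 of 41 Foxp3 and 31 of 37 Foxp3-negative cells, with 255 and 135 UMIs (1.85, 1.49 to 2.29). It was detected together with Il2ra in 27 of the 29 Foxp3 cells with Il2ra. Bcl2, a survival gene, had 23 and 52 UMIs (0.432, 0.252 to 0.719).

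Of the 12 genes ranked highest in Foxp3 cells, 3 rested on the barcodes rich in other lineages, and the other 9 included Bmyc (64 and 7 UMIs; 8.93, 4.09 to 23.1) and AA467197 (68 and 8; 8.3, 3.98 to 20). Tff1 (32 and 2 UMIs) and Zdhhc23 (24 and 0) came from 4 and 5 Foxp3 cells. Of the 12 ranked lowest, 11 rested on such barcodes, and Xcl1 was the other. Without those barcodes Lig1, a DNA ligase, had a ratio of 23.6 (3.88 to 968), Fabp5, a fatty acid binding protein, 13.6 (3.46 to 118) and Ms4a4b, a T cell membrane protein, 0.0993 (0.0384 to 0.217).

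Alpha chain variable segments had a UMI in 30 of the 78 I-PpoI cells, spread over 24 Trav genes, and the most frequent, Trav13-1, was in 6 cells, 3 of them Foxp3 cells. Beta chain segments had a UMI in 17 cells over 9 Trbv genes, with Trbv19 in 4 cells. No segment was therefore found in more than 6 cells, at a depth where most cells showed none.

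The wild-type CD4 cells had more transcript of Ccl5, Nkg7, Cxcr6 and Cxcr3 than the I-PpoI ones, and less of Il7r. The list medians of regulatory and NF-kB response genes were also lower in them, including with undetected genes set at their bound. Over the 4734 genes measured between the 78 and 10 cells, 22.3% were at least 2-fold higher in I-PpoI, 11.3% at least 2-fold lower and 52.6% higher at all. These sums compare 297586 with 44357 UMIs and 2 libraries, not 2 conditions. They also mix Foxp3 cells into 1 side only, so the 37 Foxp3-negative I-PpoI cells were compared with the 10 wild-type cells as well, where 18.6% of 2808 genes were at least 2-fold higher, 10.5% at least 2-fold lower and 52.5% higher at all.

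Il7r was detected in 70 of 78 I-PpoI cells with 390 UMIs and in 1 of 10 wild-type cells with 1 UMI, a ratio of 58.1 (10.4 to 2302). In Foxp3-negative cells alone it was detected in 31 of 37 with 135 UMIs, a ratio of 40.7 (7.19 to 1620). The medians per cell were 6 UMIs in Foxp3 cells, 4 in Foxp3-negative cells and 0 in wild-type cells. Outside the T cells an Il7r UMI was found in 2.03% of I-PpoI and 0.191% of wild-type barcodes, at median depths of 7015 and 3484.5 UMIs. After thinning, 73.2% of Foxp3, 45.9% of Foxp3-negative and 11.1% of the wild-type cells with enough UMIs had one.

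Several regulatory genes were not detected in the wild-type cells at this depth. Ikzf2, Tnfrsf4, Ctla4 and Il2ra had 207, 178, 111 and 73 UMIs in the I-PpoI cells and none in the wild-type cells, at least 10.3-fold, 8.84-fold, 5.52-fold and 3.63-fold higher. In Foxp3-negative cells Tnfrsf4 had 41 UMIs in 19 cells, at least 4.12-fold higher than in wild-type cells, and Ikzf2 28 UMIs in 8 cells, at least 2.82-fold. Of 16 regulatory identity genes 11 were at least 2-fold higher in the I-PpoI set and 2 at least 2-fold lower, with a median of 1.96 (log2), or 1.55 with the 6 genes at 0 set at their bound. Of 9 tissue repair genes 7 were at least 2-fold higher (median 2.61, or 1.00 at the bounds). Genes at 0 in the wild-type cells passed the count minimum through the I-PpoI cells alone and then counted as 2-fold higher. The list counts are therefore read beside the medians at the bounds. The I-PpoI set also holds 29 Foxp3 cells without a Cd4 UMI, which entered through Foxp3 alone, while every wild-type cell had a Cd4 UMI. The regulatory and tissue repair differences of the whole set can thus follow in part from the rule, and that part was not tested. Among the 37 Foxp3-negative cells, Il2ra had a UMI in 3 and Ctla4 in 13. Gata3 had 66 and 1 UMIs (9.84, 1.71 to 394), and Icos 44 and 2 (3.28, 0.855 to 27.9).

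Inducible genes were higher in the I-PpoI library. Of 12 NF-kB response genes 11 were at least 2-fold higher in the I-PpoI set (median 2.18, or 1.32 at the bounds), a count that again includes genes at 0 in the wild-type cells. Nfkbia had 292 UMIs in 57 of 78 cells and 4 in 2 of 10, a ratio of 10.9 (4.2 to 40.2) that became 19.5 without the barcodes rich in other lineages. Tnfaip3 (A20), which ends NF-kB signalling, had 109 UMIs in 42 cells and 0 in wild-type, at least 5.42-fold higher. Of 16 immediate early and heat shock genes 10 were at least 2-fold higher (median 2.09, or 0.62 at the bounds). Junb had 548 and 13 UMIs (6.28, 3.64 to 11.9), Dusp1 194 and 2 (14.5, 3.95 to 120) and Zfp36, which destabilises cytokine transcripts, 121 and 1 (18, 3.18 to 718). The heat shock genes Hspa1a (0.575, 0.315 to 1.12) and Hspa1b (0.573, 0.342 to 1) had ratios below 1, with intervals that reached 1.

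The same inducible genes were more often detected outside the T cells of the I-PpoI library. Junb had a UMI in 74.5% of I-PpoI and 17.9% of wild-type barcodes without a Cd3 or Trac UMI, and in 50.4% and 8.04% after thinning to 1000 UMIs. The thinned shares were 28.8% and 10.7% for Nfkbia and 32.7% and 7.55% for Dusp1. Median mitochondrial share was 3.57% in the I-PpoI and 7.54% in the wild-type CD4 cells. The part of these library-wide differences in the T cell ratios was not tested. In Foxp3-negative cells 7 NF-kB genes were measured, all 7 were higher and the median was 1.58, with or without the 1 gene at 0 set at its bound. The immediate early list had 10 of 14 higher, 7 of them at least 2-fold, with a median of 1.34 (0.75 at the bounds) that went to -0.23 in thinned cells. Nfkbia (6.11, 2.3 to 23), Junb (3.9, 2.22 to 7.47) and Zfp36l2, a regulator of transcript decay (6.68, 3.17 to 16.9), were among the higher genes.

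Ccl5, Nkg7, Cxcr6 and Cxcr3, which effector T cells express, were higher in the wild-type cells, while the lists that hold them were mixed. Of 4 measured cytotoxic genes 3 were at least 2-fold lower in I-PpoI, and Gzmb had 21 and 1 UMIs (3.13, 0.503 to 129). Of 6 type 1 helper genes 3 were at least 2-fold lower and 1 at least 2-fold higher (median -0.62, log2). Ccl5 had 174 UMIs in 8 of the 10 wild-type cells and 166 in 33 of 78 I-PpoI cells, a ratio of 0.142 (0.114 to 0.177). Per cell, the median was 14 UMIs in wild-type cells (0 to 60), 1 in Foxp3-negative cells (0 to 25) and 0 in Foxp3 cells (0 to 7). Nkg7 was in 9 of 10 wild-type, 17 of 37 Foxp3-negative and 0 of 41 Foxp3 cells, with 42 UMIs in the wild-type and 35 in the I-PpoI cells (0.124, 0.077 to 0.199). Cxcr6 was in 7, 12 and 3 cells (0.131, 0.0767 to 0.223) and Cxcr3 in 5, 16 and 2 (0.308, 0.161 to 0.614). Outside the T cells an Nkg7 UMI was found in 0.184% and 0.381% of barcodes. The share of cells with a UMI was thus highest in wild-type and lowest in Foxp3 cells for these 4 genes. For Cxcr3 the wild-type and Foxp3-negative shares were close.

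With the Foxp3 cells set aside, Foxp3-negative over wild-type ratios were 0.222 (0.175 to 0.28) for Ccl5, 0.251 (0.156 to 0.403) for Nkg7 and 0.238 (0.137 to 0.41) for Cxcr6. Cxcr3 was closer between these classes, with a median of 0 UMIs in Foxp3-negative and 0.5 in wild-type cells. The deepest wild-type cell alone held 8 Cxcr3 UMIs. Ms4a4b had 76 and 46 UMIs (0.246, 0.169 to 0.363), and Psmb9, an immunoproteasome subunit induced by interferon, 30 and 22 (0.203, 0.113 to 0.37). Between the whole I-PpoI set and the wild-type cells, Xcl1 had 61 and 47 UMIs (0.193, 0.13 to 0.289), and its log2 ratio went from -2.37 to -1.13 without the deepest cell of each side. The deepest wild-type cell held 11702 UMIs, 26.4% of the wild-type total. Without the deepest cell of each side Plac8 and Ifi27l2a, which were 14.1-fold and 4.52-fold lower in the I-PpoI set, were higher in it, at 0.60 and 0.11 (log2).

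Interferon response genes were lower in the I-PpoI set, with 11 of 13 measured genes lower and 8 at least 2-fold, and a median of -1.16 (log2). The median was -0.75 without the deepest cell of each side and -0.87 in Foxp3-negative cells, where 10 of 12 were lower and 5 at least 2-fold. Ifi209 had 7 and 12 UMIs (0.0869, 0.029 to 0.24), while Gbp7 had 43 and 1 (6.41, 1.09 to 259) and turned to -0.53 (log2) in thinned cells. MHC class I genes were lower in 9 of 12 with a median of -0.61, and 3 were at least 2-fold lower. H2-K1 had 552 and 124 UMIs (0.664, 0.545 to 0.813) and B2m 492 and 91 (0.806, 0.643 to 1.02), whose interval included 1. Effector and tissue memory genes other than Ccl5 and Cxcr6 lay near the middle, with a list median of 0.03. Rgs1, which is abundant in resident T cells, was higher in I-PpoI cells (2.02, 1.23 to 3.52), and Cd69 (2.38, 0.981 to 7.54) had an interval that included 1. Klf2 (1.33, 0.689 to 2.86) and Tcf7 (0.686, 0.255 to 2.31) had intervals around 1.

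**Figure D5:**
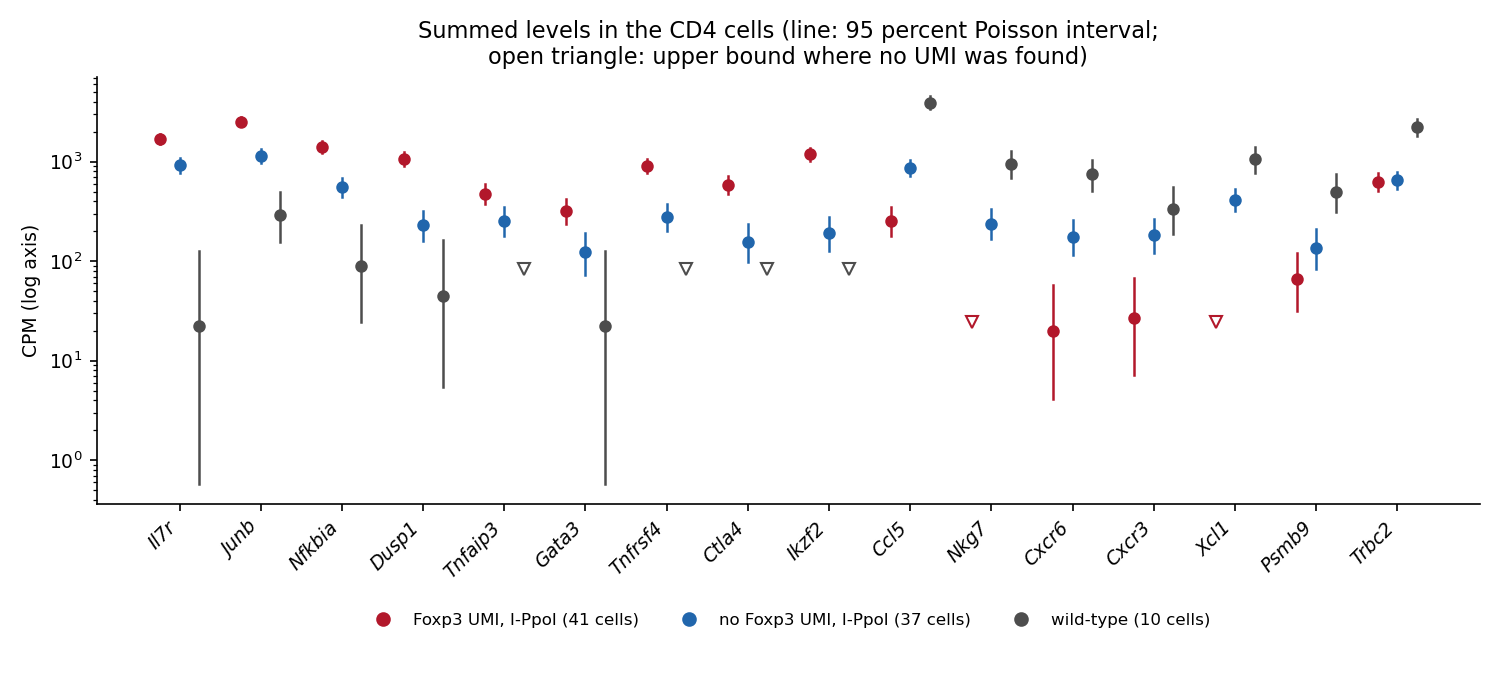
Level (CPM, log axis) of 16 genes summed over Foxp3 cells, Foxp3-negative cells and wild-type CD4 cells, with 95% Poisson intervals for counting error and open triangles at the upper bound where no UMI was found. Il7r, Junb and Nfkbia are highest in Foxp3 cells and lowest in wild-type cells, and Ccl5, Nkg7, Cxcr6 and Cxcr3 are in the opposite order.

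Against the 74 CD8 cells of the same library, the 78 CD4 cells had more of the regulatory genes and less of the cytotoxic genes. The CD4 set includes the 41 Foxp3 cells and the rule left none among the CD8 cells, so its regulatory genes partly reflect that choice. Over 6790 genes, 17.6% were at least 2-fold higher in the CD4 set, 8.04% at least 2-fold lower and 60.5% higher at all. Of 19 regulatory identity genes 14 were at least 2-fold higher (median 2.25, log2), and all 9 tissue repair genes were at least 2-fold higher (median 5.04, or 2.40 with genes at 0 set at their bound). Tnfrsf4 had 178 UMIs in 52 cells against 5 in 4 (43.4, 18.3 to 135), Ikzf2 207 in 43 against 8 in 2 (31.5, 15.7 to 74), Il2ra 73 in 32 against 2 in 2 (44.5, 11.9 to 374), and Areg 84 against 0, at least 34.1-fold higher. Ramp1, a co-receptor for the neuropeptide CGRP, had 37 UMIs in 21 CD4 cells and none in CD8 cells, at least 15.0-fold higher. Maf, a factor of helper and regulatory cells, had 118 against 14 UMIs (10.3, 5.89 to 19.4), and 37.5 (14.3 to 140) without the barcodes rich in other lineages.

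All 11 measured cytotoxic genes were at least 2-fold lower in the CD4 set (median -3.33, or -2.42 at the bounds), 10 of them without the barcodes rich in other lineages, against 6.53% of all genes. Ccl5 had 166 UMIs in 33 cells against 2646 in 72 (0.0765, 0.065 to 0.0895), and the chemokine Ccl4 9 against 260 (0.0422, 0.0191 to 0.0814). The natural killer receptor chains Klrd1 (2 against 118), Klrk1 (0 against 55) and Klrc1 (0 against 44) gave most of their UMIs in the CD8 cells. All 13 measured cell cycle genes were lower in the CD4 set and 11 at least 2-fold. The median was -2.84, and 0.10 in thinned cells. For each of these genes the CD8 cell richest in it gave between 35.3% (Pcna) and 89.5% (Cenpf) of the CD8 UMIs, and the part of such cells in the median was not tested. Of the genes ranked first, 10 of 12 higher and 10 of 12 lower rested on barcodes rich in other lineages.

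The 115 CD4-CD8-negative T cells of the I-PpoI library were closer to the CD4 set in their regulatory genes. The rule left no Foxp3 UMI in these negative cells, while the CD4 set includes the 41 Foxp3 cells. Over 8336 genes 12.7% were at least 2-fold higher in the CD4 set, 14.5% at least 2-fold lower and 54.8% higher at all. The lower share was 5.28% without the 13 negative and 2 CD4 barcodes rich in other lineages. Of 20 regulatory identity genes 12 were at least 2-fold higher, with a median of 1.30 (log2) that was 0.84 without those barcodes, when 6 of 18 were, against 9.84% of all genes. Tissue repair genes were higher in 10 of 10, 7 at least 2-fold (median 2.42, or 1.71 without those barcodes). Ikzf2 had 207 UMIs in 43 of 78 CD4 cells and 65 in 25 of 115 negative cells (6.42, 4.84 to 8.62), and 3.8 (2.85 to 5.12) without those barcodes. Il1rl1 had 49 UMIs in 23 cells and 10 in 8 (9.88, 4.94 to 21.9), and a ratio of 4.5 without those barcodes. Penk had 23 UMIs in 7 cells and 1 in 1 (46.4, 7.53 to 1910), and a ratio of 28.0 (4.54 to 1152) without them. Of the 23 Penk UMIs 52.2% were in 1 cell. Cd83, an activation marker, had 19 and 2 UMIs (19.2, 4.62 to 170), and a ratio of 11.55 (2.79 to 102) without those barcodes. The gamma-delta receptor genes were lower, with Trdc at 7 UMIs in 2 CD4 cells and 78 in 12 negative cells (0.181, 0.0704 to 0.391) and Trdv4 at 0 and 29, at least 4.78-fold lower in the CD4 set. The Trdc ratio was 0.115 (0.0447 to 0.249) without those barcodes. A Cd4 UMI was found in 12 of 41 Foxp3 cells, so a T cell without one is not shown to lack Cd4.

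Markers of other cell types were present at low levels in the CD4 set. Macrophage markers reached at least 3 UMIs in 14 of 41 Foxp3, 11 of 37 Foxp3-negative and 2 of 10 wild-type cells, with medians of 6.54, 5.10 and 0 UMIs per 10000, and Adgre1 and Cd14 were at 0 in all of the I-PpoI cells. Of 10 natural killer markers 1 was detected in Foxp3 cells, 3 in Foxp3-negative cells and 2 in wild-type cells, and Ncr1 and Klrb1c were at 0 in each class. Their summed level was 6.64, 428 and 1082 CPM, with medians of 0, 0 and 5.37 UMIs per 10000. No such UMI was found in 40 of 41, 28 of 37 and 3 of 10 cells. Xcl1 gave 61 of the 63 Foxp3-negative and 47 of the 48 wild-type UMIs. Of 8 gamma-delta markers Trdc was at 0 in Foxp3 and wild-type cells, and 1 wild-type cell carried Tcrg-C2 and Tcrg-C4. Of 11 B cell markers Cd79b and Pax5 were at 0 in every class. Their part in the results above was not tested.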

How the data were processed

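The labels name a 3' reagent kit version 3.1 and Cell Ranger 3.1 with an mm10 reference package, while the file headers name Cell Ranger 6.0.2, and Seurat 3 is named for later steps, per the labels. The deposited values are whole-number UMI counts per gene and barcode for 31053 genes, not normalized by the authors, and no correction for free RNA was applied to them here. Coordinates came from the GENCODE annotation of the same build, which held 31011 of the 31053 gene IDs.

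The CD4 set was found by its rule in both matrices. UMIs were summed over the cells of each class and divided by the class total to give UMIs per 1000000 UMIs (CPM). A ratio of 2 such levels has an exact conditional binomial interval, a share a Clopper-Pearson interval and a level a Poisson interval, all at 95%. Log2 ratios add 0.5 counts to each sum. Genes needed at least 10 UMIs over both sides, a gene at 0 is bounded against 3 UMIs per class, and list medians are also given with such genes at their bound. Such a gene passes the minimum through 1 side alone, and the list counts include it. The background is the share of all genes measured that are at least 2-fold higher or lower. Genes with at least 20 UMIs were ranked by the interval bound nearest 1, and the first 12 each way are named, beside members of 35 gene lists. Left out of the ranking were mitochondrial, ribosomal protein and haemoglobin genes, genes of the rule and, between libraries, genes no higher than outside the T cells. Genes of these lists, and genes ranked without the barcodes rich in other lineages, are named as examples. The members and lists were chosen with earlier results of these data known.

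Doublets were scored with Scrublet in scanpy 1.11.5, whose own threshold marked 29 and 3 barcodes, so leaving out the top 4% of scores is an alternative; it held 0 I-PpoI and 1 wild-type cells of the CD4 set. Python tools were numpy 2.4.6, scipy 1.17.1, pandas 2.3.3 and matplotlib 3.10.9. Counts were also simulated as Poisson sums per class, without spread between cells, with known changes in some of the measured genes. In the Foxp3 comparison, 62.8% of 78 genes changed 2-fold and 97.9% of 97 changed 4-fold had an interval that left out 1. These were changed genes with at least 20 simulated UMIs. Between libraries the shares were 29.2% of 89 and 73.0% of 100 such genes. Leaving out the deepest cells or the barcodes rich in other lineages was chosen after seeing the data. So were the comparison of Foxp3-negative with wild-type cells and the split of the CD4 set against CD8 cells.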

Additional observations from a re-analysis of the deposited data

How the results depend on the processing

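With 1 library per group no library can be left out, and no paired analysis was possible because each group has 1 library. The 10 wild-type cells and their 44357 UMIs limit every comparison between libraries. Thinning every cell to 1000 UMIs left 39 and 3 cells in the CD4 set, 16.1% and 6% of T barcodes, and 9.92% for Foxp3 cells. Leaving out barcodes with 3 or more macrophage UMIs, which removes most I-PpoI barcodes from the denominator, moved the ratio of kept shares to 17.6. The ratio was 9.38 (2.98 to 47.4) in thinned cells and 4.54 (2.34 to 9.83) with a 25% mitochondrial limit. Without barcodes rich in other lineages it was 4.27 (2.13 to 9.69). There the Foxp3 share of T barcodes was at least 2.54-fold higher, with an exact lower limit of 1.97.

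The share of genes past 2-fold depended on the count minimum. With genes of at least 1 UMI it was 13.8% higher and 31.6% lower for I-PpoI over wild-type, 24.4% and 21.9% for Foxp3 over Foxp3-negative cells, 28.1% and 17.7% against CD8 cells, 19.9% higher against negative cells and 19.4% lower for Foxp3-negative over wild-type cells. With at least 20 UMIs the lower share for Foxp3 over Foxp3-negative cells was 6.39%. With 1 count added, 13.1% were higher in I-PpoI. The lower share between libraries was 20.5% in thinned cells. Against negative cells the lower share was 5.7% with 2 or more Cd3 and Trac UMIs, 9.11% in thinned cells and 5.28% without barcodes rich in other lineages.

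List medians that moved are given as log2. For I-PpoI over wild-type, thinned cells gave 2.27 for naive, -0.81 for effector and 0.82 for tissue repair genes. For Foxp3 over Foxp3-negative cells, tissue repair was 1.04 with 2 or more Foxp3 UMIs, naive genes were -1.49 in thinned cells and -1.58 without macrophage UMIs, and receptor signalling was -0.82 without macrophage UMIs and -0.0044 without C1q UMIs. Cell cycle genes against CD8 cells were -1.38 without macrophage UMIs, -1.15 by the mean of per-cell CPM and 0.10 in thinned cells. Effector genes for Foxp3-negative over wild-type cells were -0.40 without top doublet scores, -0.47 without macrophage UMIs, -0.85 in thinned cells, -0.61 without barcodes rich in other lineages and -0.36 by the mean of per-cell CPM.

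Single genes that changed sign between libraries were Gm14718 (0.58 without macrophage UMIs, 0.88 without the deepest cells), Plac8 (0.60) and Ifi27l2a (0.11) without the deepest cells, and Gbp7 in thinned cells (-0.53). For Foxp3-negative over wild-type cells they were Btg2 in thinned cells (-0.40) and, without the deepest cells, Ifi27l2a (0.20) and Plac8 (0.68). For Foxp3 over Foxp3-negative cells they were Itgae in thinned cells (-0.15) and S100a4 without macrophage UMIs (-0.13). The cause of these changes was not tested.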

Other observations

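Lists tied to DNA damage were read in the CD4 cells as well. Of 17 p53 target genes 5 had enough UMIs between libraries, of which 2 were at 0 in wild-type and passed the filter through the I-PpoI cells alone, so no direction is read from the list. Its median was 1.50 (log2), or 0.31 with those 2 genes at their bound. The proapoptotic gene Bax had 44 and 3 UMIs (ratio 2.19, 0.701 to 11) and Trp53inp1 28 and 1 (4.17, 0.69 to 171), and both intervals included 1. Of 16 double-strand break repair genes 2 were measured, Atm at 16 and 3 UMIs (0.795, 0.228 to 4.26) and Rad50 at 25 and 3 (1.24, 0.379 to 6.43). The intervals of these 4 genes all included 1, so no difference was detectable in them at this depth.

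Of 9 measured genes of the interleukin-2 and interleukin-7 axis 6 were higher in the I-PpoI set, against 52.6% of all genes. At least 2-fold higher were 4, against 22.3% of all genes. The median was 0.22 with a range from -0.91 to 3.18 (log2), so no direction is read from the list. The 3 genes given next are from the upper end, chosen after their values were seen. Pim1 had 121 and 2 UMIs (9.02, 2.44 to 75.3), Cish, which restrains STAT5 signalling, 65 and 2 (4.84, 1.29 to 40.8) and Socs1, a brake on interferon and interleukin signals, 43 and 1 (6.41, 1.09 to 259).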
